A study of Mus musculus with 6 samples.

Results

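Aminoacyl-tRNA synthetases are the enzymes that join each amino acid to its own tRNA, and the expression of 34 of their genes was compared in mouse granulocytes with and without caffeine during a transcription block. The members were chosen by name from a list of 36 synthetase genes, 20 cytosolic and 16 mitochondrial (symbols ending in 2). A gene was kept where the array annotation had a probe set for it alone, and where it had several, the brightest was used. All 16 mitochondrial and 18 of the 20 cytosolic genes were measured, out of 19937 genes in all. Aars shares its only probe set with Exosc6, and Dars is not named in the annotation used here, so neither was tested.

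Cytosolic synthetases charge the tRNAs used by cytosolic ribosomes, and a second set, also encoded in the nucleus and imported, charges the tRNAs used inside mitochondria. Gars and Kars each encode both the cytosolic and the mitochondrial enzyme and are counted here with the cytosolic genes. Uncharged tRNA activates the kinase GCN2, which phosphorylates eIF2, favours translation of the transcription factor ATF4 and so raises transcription of amino acid transporters, biosynthetic enzymes and many cytosolic synthetases.

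The cells were cultured granulocytes of the C57BL/6J strain, and their RNA was read on 6 arrays of the Affymetrix Mouse Gene 1.0 ST type, 3 for each of a caffeine-plus and a caffeine-minus group. SMG1, a kinase of nonsense-mediated decay, belongs to the PI3K-like kinases that caffeine inhibits, and the series asks which transcripts accumulate when that decay is held back. Per the labels' protocols, cells of both groups were first kept for 4 hours in 15 mM caffeine and washed, then given actinomycin D, which blocks transcription, at 2 µg/ml for another 4 hours. Caffeine was present together with actinomycin D in the caffeine-plus cells only, although the labels call the caffeine-minus cells not treated with it. No culture without actinomycin D was compared, so every value below was taken with transcription blocked in both groups. A gene said to rise or fall was higher or lower in the caffeine-plus than in the caffeine-minus cells. Change over time was not measured. Values are on the log2 scale of the deposited table, differences are caffeine-plus minus caffeine-minus with their standard errors, and n = 3 arrays per group throughout. The labels do not say whether the arrays of a group stand for separate animals or cultures, so p-values rest on a spread between arrays that may be only technical.

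Array medians lay between 6.49 and 6.60, and arrays correlated at r = 0.986 to 0.992 within groups and at 0.959 to 0.965 between groups (Pearson, across probe sets). Of 13 granulocyte markers, all measured, 12 were lower and none higher in the caffeine-plus cells, with a mean log2 level of 9.64 to 9.71 in the caffeine-plus arrays and 10.23 to 10.37 in the caffeine-minus arrays. Of 7 measured markers of monocytes and macrophages 6 were lower and 1 higher, with mean levels of 8.37 and 9.02 to 9.19 in the same order of groups, and 4 of 6 markers of eosinophils, basophils and mast cells and 4 of 5 of dendritic cells were lower. Of 4 measured B cell markers 1 was lower (Cd79b, 3.29-fold), of 5 of T and NK cells 1, and of 4 of megakaryocytes 1 (Ppbp, 2.11-fold). Of 3 measured erythroid markers 1 was higher and 1 lower. Over all genes 16.2% were higher and 21.7% lower, and of those above the median level of all genes 30.8% and 35.1%. Fewer cells of a type and less RNA per cell cannot be told apart in such data, and the part of these shifts in the synthetase results was not tested.

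Among the cytosolic synthetase genes 10 of 18 were higher, 5 were lower and 3 did not pass the test in the caffeine-plus cells (limma, Benjamini-Hochberg adjusted p under 0.05 over all genes). Over all 19937 genes 16.2% were higher and 21.7% lower. Bright genes pass more often, and all 18 cytosolic genes and 12 of the 16 mitochondrial ones lay above the median level of all genes. Among the 9968 genes above that level, tested on their own, 30.8% were higher and 35.1% lower, with a median of -0.05. The cytosolic genes had a share of 55.6% higher and 27.8% lower in either test, so their share of higher genes was above both backgrounds, and their share of lower genes was above that of all genes and below that of the brighter genes. Their median log2 difference was 0.20 against -0.04 for all genes. Among the mitochondrial genes 3 of 16 were higher, or 18.8%, 5 were lower, or 31.2%, and 8 did not pass. The 12 above the median level had 3 higher, or 25%, and 4 lower, or 33.3%, which is near the background of genes at that level. The median of all 16 mitochondrial genes was -0.02. It changed sign to 0.05 after quantile normalization and to 0.04 with arrays centred on their medians. This median therefore lay on neither side of 0 beyond the choice of scaling. None of the 34 genes differed by 2-fold: the differences ran from -0.57 to 0.75 among cytosolic and from -0.74 to 0.40 among mitochondrial genes. The arrays of the groups did not overlap for 15 of the 18 cytosolic and 9 of the 16 mitochondrial genes, against 45.9% of all genes. Of genes above the median level 70.2% did not overlap, against 15 of the 18 cytosolic and 7 of the 12 mitochondrial genes there.

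**Figure D1:**
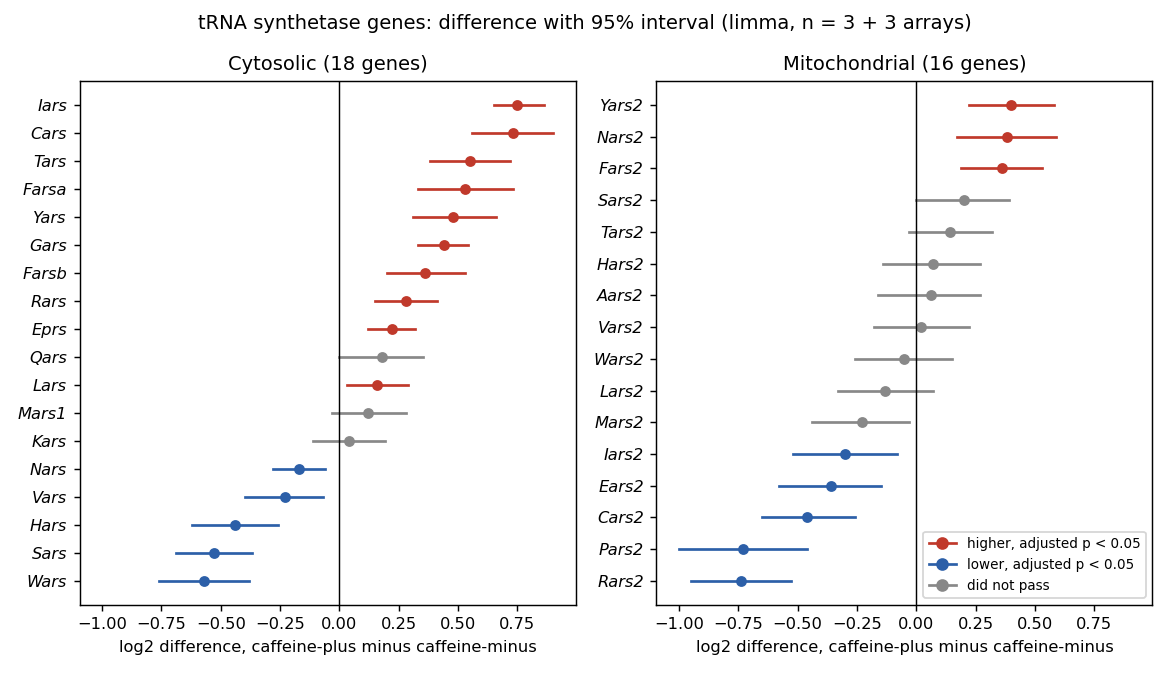
Log2 difference (caffeine-plus minus caffeine-minus) of each of the 18 cytosolic and 16 mitochondrial synthetase genes, with the 95% interval from limma (n = 3 arrays per group). The cytosolic genes reach from Wars at -0.57 to Iars at 0.75, and 10 of them are higher, while 8 of the mitochondrial genes did not pass the test.

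Iars and Cars had the largest rises. The probe set of Iars, which encodes the isoleucyl-tRNA synthetase, read 11.93, 11.90 and 11.90 in the caffeine-plus arrays and 11.23, 11.13 and 11.10 in the caffeine-minus arrays, so the groups lay well apart. The difference was 0.75 ± 0.05 or 1.68-fold (limma adjusted p = 6.3e-09). The number of this probe set, 10345025, falls among probe sets of genes on chromosome 1 (16 of 17 neighbouring numbers whose gene has a chromosome), although Iars lies on chromosome 13, and whether it reads Iars itself or a copy elsewhere was not tested. The dimmer Iars probe set, 10405094, falls among genes of chromosome 13, and read 10.60, 10.61 and 10.50 against 9.72, 9.69 and 9.41. It gave a larger difference, 0.96 ± 0.09 (limma adjusted p = 0.00018 in a fit of every probe set). Of the 35 probe sets of synthetase genes, 34 have numbers that fall among genes of their own chromosome.

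Cars, the cysteinyl-tRNA synthetase gene, read 9.12, 9.29 and 9.12 in the caffeine-plus arrays and 8.44, 8.54 and 8.35 in the caffeine-minus arrays. No arrays overlapped, and Cars was 1.66-fold higher (0.73 ± 0.08, limma adjusted p = 1.7e-06). Tars, which encodes the threonyl-tRNA synthetase, read 9.99, 10.06 and 10.01 against 9.51, 9.61 and 9.29, with the caffeine-minus arrays the more spread. Tars was 1.46-fold higher (0.55 ± 0.08, limma adjusted p = 2.8e-05). The phenylalanyl-tRNA synthetase is built of an alpha and a beta subunit, encoded by Farsa and Farsb. Farsa read 8.49, 8.40 and 8.25 against 8.01, 7.73 and 7.81 and was 1.45-fold higher (0.53 ± 0.09, limma adjusted p = 0.00022). Farsb was 1.29-fold higher (0.36 ± 0.08, limma adjusted p = 0.0012), so the genes of both subunits were higher in the caffeine-plus cells.

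Yars, the tyrosyl-tRNA synthetase gene, read 8.38, 8.48 and 8.32 in the caffeine-plus arrays and 7.83, 7.92 and 7.99 in the caffeine-minus arrays. It was 1.40-fold higher (0.48 ± 0.08, limma adjusted p = 0.00017). Gars, the glycyl-tRNA synthetase gene that serves both compartments, read 11.21, 11.23 and 11.19 against 10.76, 10.80 and 10.75. The arrays of a group lay close together, with standard deviations of 0.02 and 0.03, and Gars was 1.36-fold higher (0.44 ± 0.05, limma adjusted p = 2.4e-06). Rars (arginine) read 10.38, 10.53 and 10.43 in the caffeine-plus arrays and 10.25, 10.10 and 10.16 in the caffeine-minus arrays, with no overlap. It was 1.21-fold higher (0.28 ± 0.06, limma adjusted p = 0.0019). Eprs (glutamate and proline, joined by one bifunctional protein) was 1.16-fold higher (limma adjusted p = 0.0015). Lars (leucine) was 1.12-fold higher (0.16 ± 0.06, limma adjusted p = 0.045). Lars did not pass when caffeine-plus array 1 (limma adjusted p = 0.18), 2 (0.087) or 3 (0.084) or caffeine-minus array 3 (0.11) was left out, nor with every probe set tested (0.11) or with the variance fitted without its trend (0.19). Its limma adjusted p ran from 0.0033 to 0.19 over 16 alternatives.

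Several synthetase genes are known to be induced through the C/EBP-ATF response element, to which ATF4 binds with a C/EBP partner. Its core TGATGNAA was searched on both strands of the RefSeq promoter windows (GRCm38.p6, 250 bases before to 50 after the start). Of 32851 windows 3.97% hold the core, and of 15613 measured genes with a window 3.62% do. Windows were given for 25 of the 34 synthetase genes. The core was present in 4 of 11 cytosolic and in none of 14 mitochondrial genes. The 4 genes were Gars, Iars, Tars and Yars, all of which were higher in the caffeine-plus cells. The core was absent from the other 3 higher cytosolic genes with a window (Eprs, Farsa and Farsb). It was also absent from the lower Sars, and from Kars, Mars1 and Qars, which did not pass the test. Sars was the only lower cytosolic gene with a window. Hars, Nars, Vars and Wars, which were lower, and Cars, Lars and Rars, which were higher, had none and were not searched. Higher and lower cytosolic genes therefore cannot be compared for the core. The windows of the 4 genes and of Asns, the asparagine synthetase gene and a widely used ATF4 target, are shown from 100 bases before to 20 bases after the start, on the strand of the gene, with the core or its reverse complement in capitals.
Gars, chr6:55037901-55038020, plus strand: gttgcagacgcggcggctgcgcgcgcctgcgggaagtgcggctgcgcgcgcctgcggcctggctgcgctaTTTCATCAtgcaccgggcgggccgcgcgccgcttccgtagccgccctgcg
Iars, chr13:49682030-49682149, plus strand: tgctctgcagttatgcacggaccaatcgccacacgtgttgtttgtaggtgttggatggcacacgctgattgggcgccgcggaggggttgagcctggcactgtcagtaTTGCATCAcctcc
Tars, chr15:11399639-11399758, minus strand: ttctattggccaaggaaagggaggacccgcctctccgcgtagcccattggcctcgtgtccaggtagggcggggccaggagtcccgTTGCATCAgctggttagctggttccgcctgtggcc
Yars, chr4:129189803-129189922, plus strand: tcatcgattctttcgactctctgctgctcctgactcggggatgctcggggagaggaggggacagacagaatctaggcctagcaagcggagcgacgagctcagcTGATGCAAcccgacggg
Asns, chr6:7693190-7693309, minus strand: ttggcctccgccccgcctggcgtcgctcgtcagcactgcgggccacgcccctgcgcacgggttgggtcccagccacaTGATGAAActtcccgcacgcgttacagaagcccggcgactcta
The match begins 30 bases before the start in Gars, 15 before in Tars and 23 before in Asns, at base 8 after it in Iars and at base 4 in Yars. Iars, Tars and Yars carry the same core with C at its free position. Asns, which holds the core too, read 11.77, 11.80 and 11.78 in the caffeine-plus arrays and 11.74, 11.82 and 11.76 in the caffeine-minus arrays, a difference of 0.01 ± 0.04 with a 95% interval from -0.08 to 0.10. A match is a run of letters and was not measured as a bound site, and with actinomycin D in both groups transcription from these starts was not measured either.

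Among the 5 cytosolic genes that fell, Wars, the tryptophanyl-tRNA synthetase gene and a known target of interferon gamma, fell most. It read 7.56, 7.47 and 7.30 in the caffeine-plus arrays and 8.01, 8.04 and 7.98 in the caffeine-minus arrays, and was 1.48-fold lower (log2 difference -0.57 ± 0.09, limma adjusted p = 8e-05). Sars, the seryl-tRNA synthetase gene, read 8.79, 8.78 and 8.63 against 9.23, 9.35 and 9.20, again without overlap. It was 1.44-fold lower (-0.53 ± 0.08, limma adjusted p = 2.8e-05). Hars, the histidyl-tRNA synthetase gene, read 8.24, 8.40 and 8.35 against 8.91, 8.73 and 8.69. It was 1.36-fold lower (-0.44 ± 0.08, limma adjusted p = 0.00043).

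Nars (asparagine) and Vars (valine) fell less. Nars read 11.30, 11.29 and 11.23 against 11.43, 11.53 and 11.39, and was 1.13-fold lower (-0.17 ± 0.05, limma adjusted p = 0.013). Vars read 7.99 ± 0.01 against 8.22 ± 0.05 (SD, n = 3 arrays each), and was 1.18-fold lower (-0.23 ± 0.08, limma adjusted p = 0.025). Both calls were lost with arrays centred on their medians (limma adjusted p = 0.21 for Nars and 0.10 for Vars) and without caffeine-plus array 3 (0.074 and 0.06), and in either of these settings 3 rather than 5 cytosolic genes were lower. Nars was also lost without caffeine-minus array 2 (0.075) and without the variance trend (0.13), and Vars without caffeine-plus array 1 (0.09) or 2 (0.078) or caffeine-minus array 1 (0.069). Over 16 alternatives the limma adjusted p ran from 0.0015 to 0.21 for Nars and from 0.012 to 0.10 for Vars.

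Kars (lysine), Mars1 (methionine) and Qars (glutamine) did not pass. Kars differed by 0.04 ± 0.07, with a 95% interval from -0.11 to 0.19, and Mars1 by 0.12 ± 0.07, from -0.03 to 0.28. Qars differed by 0.18 ± 0.08 (limma adjusted p = 0.11) and passed without caffeine-minus array 2 (0.024), with a range of 0.024 to 0.41 over the alternatives. The span of Mars1 overlaps that of Ddit3, which encodes the stress factor CHOP and rose by 1.33. Strands and probe positions were not compared, so whether the reading of one gene holds signal of the other was not tested.

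**Figure D2:**
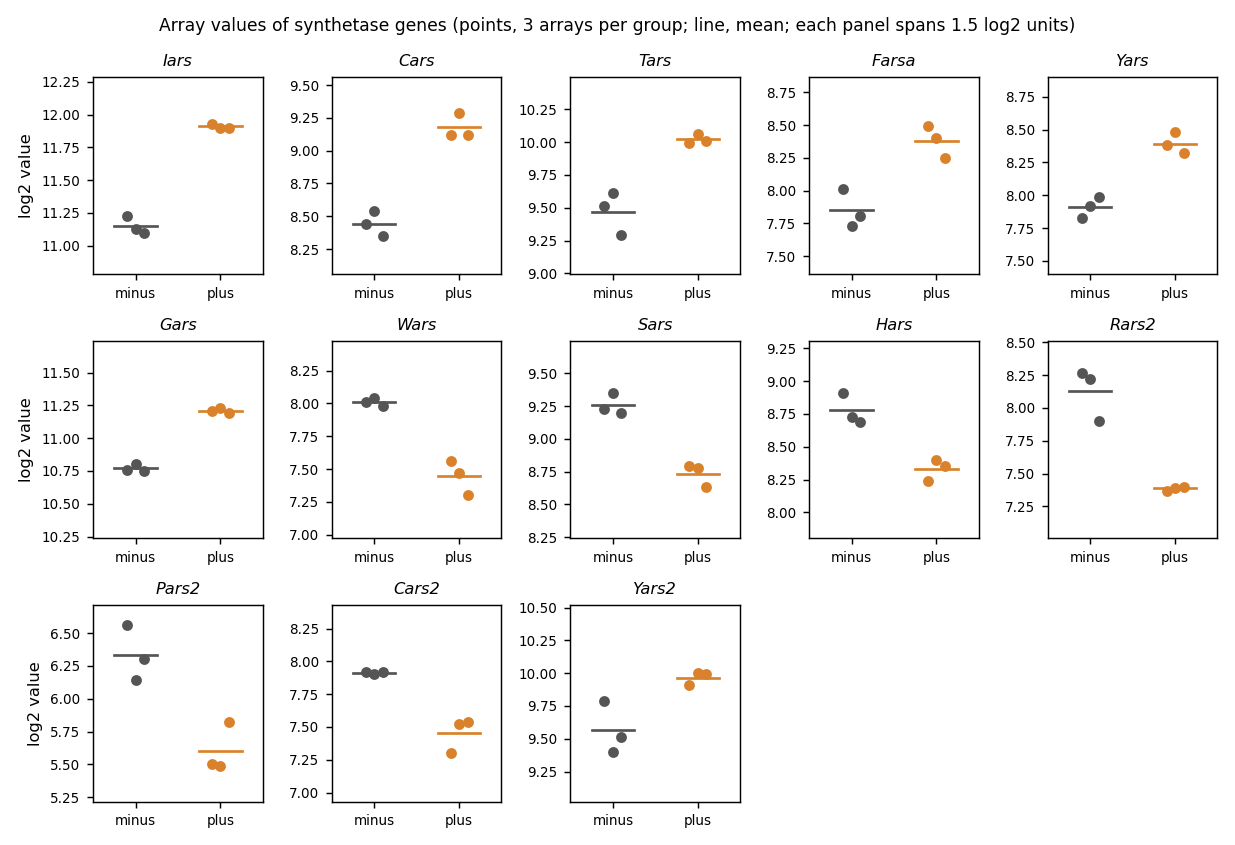
Log2 values in each array for the 13 synthetase genes that passed the test, had no overlap between groups and differed by at least 0.4. Points are arrays, 3 per group (minus for caffeine-minus and plus for caffeine-plus), and lines are means. Every panel has the same height in log2 units but is centred on its own gene, so levels cannot be compared between panels. Iars, Cars, Tars, Farsa, Yars, Gars and Yars2 sit higher in the caffeine-plus arrays, and Wars, Sars, Hars, Rars2, Pars2 and Cars2 lower.

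Several cytosolic synthetases form the multi-tRNA synthetase complex, held together by the scaffold proteins that Aimp1, Aimp2 and Eef1e1 encode. Of its 7 measured enzymes (Eprs, Iars, Kars, Lars, Mars1, Qars and Rars) 4 rose, or 57.1%, and none fell. All 7 differences were above 0, from 0.04 to 0.75 with a median of 0.18, and the call of Lars was lost in some settings. Outside the complex 6 of 11 cytosolic genes rose, or 54.5%, and 5 fell, or 45.5%. Their median difference was 0.36 and their range -0.57 to 0.73. All 5 cytosolic falls were therefore in genes whose products are not in the complex, and those of Nars and Vars were lost in some settings. The share of higher genes was alike inside and outside the complex. It was above the 16.2% of all genes and the 30.8% of genes above the median level. Lower genes made up 21.7% and 35.1% of those backgrounds. The scaffold gene Aimp1 read 9.74, 9.75 and 9.68 in the caffeine-plus arrays and 9.13, 9.03 and 8.97 in the caffeine-minus arrays, and was 1.60-fold higher (0.68 ± 0.07, limma adjusted p = 6.3e-07). Aimp2 was 1.33-fold higher (0.41 ± 0.09, limma adjusted p = 0.0012), and Eef1e1 differed by -0.03 ± 0.07. These splits are descriptions of a few genes and carry no test of their own.

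Synthetases fall into classes I and II by the fold of the catalytic domain. In class I 6 of 10 cytosolic genes rose, or 60%, and 2 fell, or 20%. In class II 4 of 8 rose, or 50%, and 3 fell, or 37.5%, with a median difference of 0.20 in both classes. Among mitochondrial genes 1 of 9 in class I rose, or 11.1%, and 4 fell, or 44.4%, with a median of -0.23. In class II 2 of 7 rose, or 28.6%, and 1 fell, or 14.3%, with a median of 0.14. Of the 11 measured cytosolic genes often listed as ATF4 targets 7 rose, or 63.6%, and 3 (Nars, Sars and Wars) fell, or 27.3%. Their median was 0.22. The other 7 cytosolic genes had 3 rises, or 42.9%, and 2 falls, or 28.6%, and their median was 0.18. The backgrounds are again 16.2% higher and 21.7% lower of all genes, and 30.8% and 35.1% of those above the median level. These splits of few genes were not tested. The genomic span of a gene had a rank correlation of 0.13 with its difference over the 34 synthetase genes, against 0.19 over 19918 genes with a span (Spearman, across genes, which are not independent replicates).

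Rars2 and Pars2 had the largest falls of the family. Rars2, the mitochondrial arginyl-tRNA synthetase gene, read 7.37, 7.39 and 7.40 in the caffeine-plus arrays and 8.27, 8.22 and 7.90 in the caffeine-minus arrays, where the third array was the lowest. Rars2 was 1.67-fold lower (log2 difference -0.74 ± 0.10, limma adjusted p = 1.5e-05). Pars2, which encodes the mitochondrial prolyl-tRNA synthetase, read 5.50, 5.49 and 5.82 against 6.56, 6.14 and 6.30. It was 1.66-fold lower (-0.73 ± 0.13, limma adjusted p = 0.00022), the least precise of the called differences. Pars2 was also the dimmest of the 34 genes, its means of 5.60 and 6.33 lying below the median level of all genes, 6.68. Cars2, for cysteine, read 7.30, 7.52 and 7.54 against 7.92, 7.90 and 7.92, and was 1.37-fold lower (-0.46 ± 0.09, limma adjusted p = 0.00061).

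Ears2 (glutamate), also below the median level of all genes, was 1.28-fold lower (-0.36 ± 0.10, limma adjusted p = 0.0086). Iars2 (isoleucine) read 7.92, 7.99 and 7.91 in the caffeine-plus arrays and 8.41, 8.33 and 7.99 in the caffeine-minus arrays, so its groups touched. It was 1.23-fold lower (-0.30 ± 0.10, limma adjusted p = 0.030). Iars2 did not pass when caffeine-plus array 1 (limma adjusted p = 0.085) or 3 (0.083) or caffeine-minus array 1 (0.14) or 2 (0.11) was left out, with arrays centred (0.10), with every probe set tested (0.099) and without the variance trend (0.056), with limma adjusted p from 0.00038 to 0.14 over 16 alternatives. The spans of Iars2 and Rars2 overlap those of Rab3gap2 and Orc3, which differed by 1.17 and 0.33, in the other direction.

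The 3 mitochondrial genes that rose were Yars2, Nars2 and Fars2. Yars2 (tyrosine) read 9.97 ± 0.05 in the caffeine-plus arrays, the lowest of them at 9.91, and 9.57 ± 0.20 in the caffeine-minus arrays (SD, n = 3 each), which read 9.79, 9.40 and 9.51. It was 1.32-fold higher (0.40 ± 0.09, limma adjusted p = 0.0012). Nars2 (asparagine) read 7.35, 7.28 and 7.22 against 7.07, 6.78 and 6.85, and was 1.30-fold higher (0.38 ± 0.10, limma adjusted p = 0.0059). Fars2, which encodes a single-chain phenylalanyl-tRNA synthetase, was 1.28-fold higher (0.36 ± 0.08, limma adjusted p = 0.0014). Of the 8 that did not pass, Aars2, Hars2, Vars2 and Wars2 differed by -0.05 to 0.07, Tars2 by 0.14 ± 0.08, Lars2 by -0.13 ± 0.10, Sars2 by 0.20 ± 0.09 and Mars2 by -0.23 ± 0.10. Sars2 passed after quantile normalization (limma adjusted p = 0.019) and with arrays centred (0.045), with a range of 0.019 to 0.36. Mars2 passed among genes above the median level (limma adjusted p = 0.044) and without caffeine-minus array 1 (0.015), with a range of 0.015 to 0.26.

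For 12 amino acids both the cytosolic and the mitochondrial gene were measured. In 4 of these pairs the genes passed in opposite directions: Cars, Iars and Rars rose while Cars2, Iars2 and Rars2 fell, and Nars fell while Nars2 rose. Of these 4 pairs, those of Iars2 and Nars include calls that were lost in some settings, as given above. Yars and Yars2 were the 1 pair in which both genes rose, and in no pair did both fall. In 6 pairs the cytosolic gene alone passed (Hars, Lars, Sars, Tars, Vars and Wars), and in the methionine pair neither did. Of all measured cytosolic genes 55.6% were higher and 27.8% lower, and of the mitochondrial ones 18.8% and 31.2%. With such shares some opposite pairs arise without any link between counterparts. Whether 4 of 12 is more than that was not tested.

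To describe the difference between counterparts, the mitochondrial log2 value was subtracted from the cytosolic one in each array and the shift of that gap between the groups was taken. The gap shifted by 1.18 ± 0.10 for Cars and Cars2, by 1.05 ± 0.11 for Iars and Iars2 and by 1.02 ± 0.12 for Rars and Rars2 (caffeine-plus minus caffeine-minus, standard error from the 6 arrays). It shifted the other way for Sars and Sars2 (-0.73 ± 0.06), Nars and Nars2 (-0.55 ± 0.12), Hars and Hars2 (-0.51 ± 0.06) and Wars and Wars2 (-0.51 ± 0.14). For Yars and Yars2 the gap shifted by 0.09 ± 0.16. An exact two-sided permutation test of 3 arrays against 3 cannot give a p under 0.10, so it could not call any pair and the gaps are given as a description. The cytosolic gene had the more positive difference in 7 of the 12 pairs. The spans of Hars and Hars2 overlap, and they differed by -0.44 and 0.07.

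**Figure D3:**
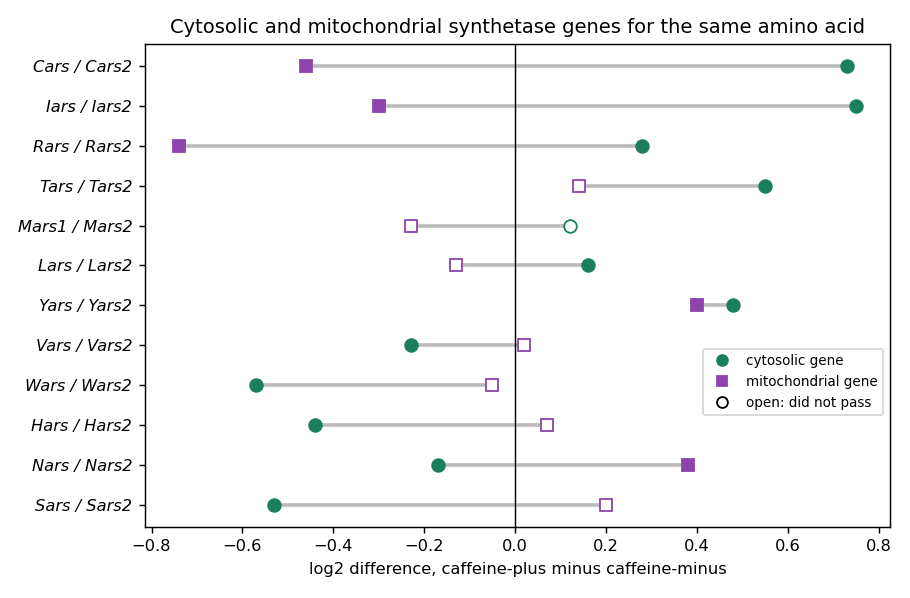
Log2 difference (caffeine-plus minus caffeine-minus) of the cytosolic gene (circle) and the mitochondrial gene (square) for each of 12 amino acids. Filled symbols passed the limma test, open ones did not, and pairs are ordered by the gap, from 1.18 for Cars and Cars2 at the top to -0.73 for Sars and Sars2 at the bottom.

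The other lists are read beside the same backgrounds, 16.2% higher and 21.7% lower of all genes and 30.8% and 35.1% of those above the median level, where all their genes lay except 2 of tRNA processing. Of the GCN2 and eIF2 branch 7 of 14 genes were higher, or 50%, and 3 lower, or 21.4%. Their median was 0.36 against -0.04 for all genes. Atf4 read 10.58, 10.59 and 10.47 in the caffeine-plus arrays and 9.42, 9.37 and 9.27 in the caffeine-minus arrays, and was 2.28-fold higher (1.19 ± 0.07, limma adjusted p = 1.1e-09). Ddit3 read 9.89 ± 0.11, the lowest array at 9.78, against 8.56 ± 0.03, the highest at 8.59 (SD, n = 3 each), and was 2.51-fold higher (limma adjusted p = 1.2e-09). Cebpg, whose product pairs with ATF4, was 1.77-fold higher, and Ppp1r15a, which encodes GADD34, a phosphatase subunit that directs removal of the eIF2 phosphate, 2.02-fold. The remaining rises were Eif2s2, a subunit of eIF2 (1.5-fold), Eif2ak4, which encodes GCN2 (1.46-fold), and Eif2ak3, which encodes the eIF2 kinase PERK (1.46-fold). The 3 genes that fell were Eif2ak2, which encodes the eIF2 kinase PKR (1.86-fold lower, limma adjusted p = 3.9e-07), Impact, an inhibitor of GCN2 activation (1.41-fold lower), and Eif2s3x, another subunit of eIF2 (1.23-fold lower). The ATF4 targets of amino acid supply that are not synthetases split, with 8 of 24 higher, or 33.3%, 6 lower, or 25%, and a median of -0.01. Slc38a2, a neutral amino acid transporter gene, read 11.87, 11.90 and 11.86 against 10.55, 10.64 and 10.42, and was 2.53-fold higher (1.34 ± 0.06, limma adjusted p = 1.2e-10). Slc3a2, the heavy chain of several amino acid transporters, was 1.44-fold, the cystathionine gamma-lyase gene Cth 1.70-fold and Nupr1 1.63-fold higher. Sesn2, Gpt2, Slc7a1 and Trib3 were 1.46-fold, 1.44-fold, 1.38-fold and 1.36-fold higher. Those that fell were the glutathione-degrading enzyme gene Chac1 (1.63-fold lower), the serine and glycine enzyme genes Shmt2 (1.49-fold) and Psat1 (1.34-fold), the glycine transporter gene Slc6a9 (1.43-fold), and, by less, Slc7a5 (1.13-fold) and Mthfd2 (1.09-fold), whose calls were lost in several settings. Of 22 such genes with a promoter window 7 held the core TGATGNAA, of which 2 rose, 1 fell and 4 did not pass. All values here are of RNA, and neither ATF4 protein nor its activity was measured.

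Other genes of aminoacylation moved both ways, with 3 of 12 higher, or 25%, 4 lower, or 33.3%, and a median of -0.08. Dtd2, which encodes a D-aminoacyl-tRNA deacylase, read 6.81, 7.05 and 7.07 in the caffeine-plus arrays and 8.55, 8.62 and 8.44 in the caffeine-minus arrays, and was 2.95-fold lower (-1.56 ± 0.09, limma adjusted p = 3.2e-09). The size of this difference was above that of each of the 34 synthetase genes. Gatc, a subunit of the mitochondrial amidotransferase that makes glutaminyl-tRNA, was 1.85-fold lower, and Prorsd1, which is related to prolyl-tRNA editing domains, 1.57-fold lower. Dtd1, a second deacylase gene, was 1.51-fold lower, while Qrsl1, another subunit gene of the amidotransferase, was 1.65-fold and Yrdc, a tRNA modification gene, 1.37-fold higher. Tarsl2, a second cytosolic threonyl-tRNA synthetase gene that the member list does not hold, was 1.80-fold higher (0.84 ± 0.11, limma adjusted p = 1.5e-05), the direction of Tars.

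Of 8 cytosolic elongation and release factor genes 3 were higher, or 37.5%, and 1 lower, or 12.5%, with a median of 0.08. The release factor genes Etf1 and Gspt1 were 1.43-fold and 1.34-fold higher, Eef1d was 1.28-fold higher and Eef2 1.14-fold lower. The call of Eef2, the 1 fall of that list, was lost with arrays centred on their medians and without the variance trend. Of 12 mitochondrial translation factor genes 3 were higher and 3 lower, or 25% each way, with a median of 0.03. The initiation factor gene Mtif2 was 1.96-fold, Taco1 1.70-fold and Mterf4 1.26-fold lower, and the elongation factor gene Gfm1 was 1.43-fold, Mtrf1 1.19-fold and Guf1 1.17-fold higher. The count of higher genes in that list was 1 without caffeine-plus array 1 or 2. Of 19 genes of tRNA processing and export 4 were higher, or 21.1%, and 7 lower, or 36.8%, with a median of -0.05. The RNase P subunit genes Rpp38, Rpp14 and Rpp21 were 2.71-fold, 2.48-fold and 1.77-fold lower. Pop7, Pop1 and the dim Rpp25, also RNase P subunit genes, were 1.37-fold, 1.35-fold and 1.29-fold lower, and the tRNA splicing gene Tsen15 1.5-fold. The RNase P genes Rpp30 and Pop4 were 1.78-fold and 1.39-fold higher. The tRNA exportin gene Xpot was 1.33-fold and the CCA-adding enzyme gene Trnt1 1.19-fold higher.

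**Figure D4:**
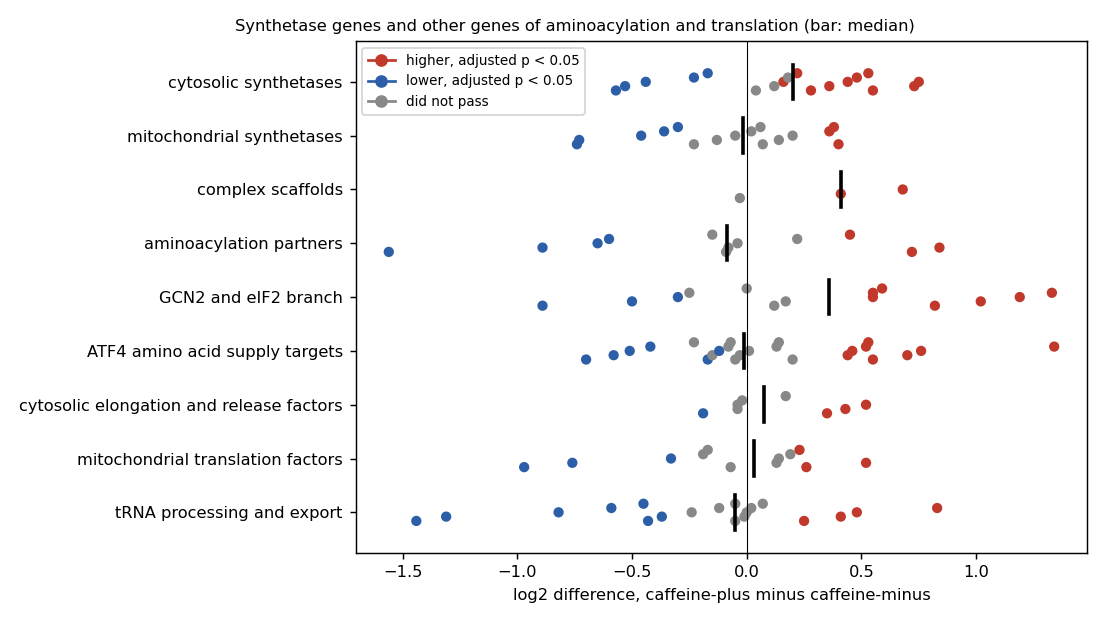
Log2 difference (caffeine-plus minus caffeine-minus) of each measured cytosolic and mitochondrial synthetase gene and of 7 other lists, with red for higher, blue for lower and grey for genes that did not pass, and a black bar at each median. The plotted medians run from -0.08 for aminoacylation partners to 0.41 for the 3 scaffold genes, and the GCN2 and eIF2 branch reaches from -0.89 to 1.33.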

How the data were processed

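Each of 6 arrays has 34760 probe set values in the deposited table. No unit is stated, and from their range of 1.90 to 13.98 the deposited values were read as log2 intensities that the authors had already normalized. How they were summarized and normalized was not given in the sources used here. A change in total mRNA per cell cannot be seen in relative values of this kind, and differences of dim probe sets are understated. The platform annotation gives 21640 probe sets 1 gene symbol. Symbols were updated through GRCm38.p6, and the probe set with the highest mean stood for each of 19937 genes. The test was limma (version 3.58.1, R 4.3.3) with lmFit and eBayes with trend, two-sided, adjusted by Benjamini-Hochberg over all genes at a threshold of 0.05, and was checked on simulated data. The number of arrays limits the precision.

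The members and lists were chosen with earlier results of these data known, so lists are described by counts and medians, read beside those of all genes and of genes above the median level. Array values are given for members that passed, did not overlap between groups and differed by at least 0.4, and for pairs that passed in opposite directions (Yars2 partly by its mean and SD). Of each other list at most 4 genes, those of smallest p, were to be named, with Atf4, Ddit3 and Asns in any case. Other genes of those lists, and genes named for an overlapping span or a promoter core, were named after their values were seen. The alternatives were a replicate block, quantile normalization, median centring, 2 filters on dim genes, the mean of probe sets, every probe set, a variance without trend, a robust variance, array weights and each array left out.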

Additional observations from a re-analysis of the deposited data

How the results depend on the processing

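Of the 23 synthetase genes that passed, 19 passed in the same direction under each of the 16 alternatives (15 for genes that a filter removed), and Lars, Nars, Vars and Iars2 did not in some. Of the 11 that did not pass, 3 passed in some setting (Qars, Mars2 and Sars2), and no called gene changed sign. The count of higher cytosolic genes ran from 9 to 11 and of lower ones from 3 to 5, with 3 when arrays were centred on their medians and 3 to 5 with an array left out. The mitochondrial counts ran from 3 to 4 higher and from 4 to 6 lower. The cytosolic median moved from 0.20 to 0.26 with arrays centred and between 0.15 and 0.24 with an array left out. The mitochondrial median moved from -0.02 to 0.05 after quantile normalization and 0.04 with arrays centred, and the cause was not tested. The labels do not say that the replicate numbers pair the arrays, so the main model had no block. Same-numbered arrays of the groups had deviations correlated at -0.03, 0.19 and 0.29, which with so few arrays cannot decide whether they were paired. With the replicate number as a block 10 cytosolic genes were higher and 5 lower, and 3 mitochondrial genes higher and 6 lower, the sixth being Mars2 (limma adjusted p = 0.039). With Iars read from its dimmer probe set, a choice made after seeing the data, the difference was 0.96 and the cytosolic counts were the same. Filters left Aars2, Ears2, Pars2 and Vars2 untested among genes above the median level.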
